A study of Homo sapiens with 8 samples.

Results

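The HOX cluster genes are the 39 protein-coding genes named HOXA, HOXB, HOXC or HOXD followed by a number, out of 19970 protein-coding genes on chromosomes 1 to 22 and X (hg38). They were chosen by symbol, with no measured value. The HOXA cluster on chromosome 7 holds 11 of them, HOXB on chromosome 17 holds 10, HOXC on chromosome 12 holds 9 and HOXD on chromosome 2 holds 9. A peak was assigned to a cluster when it overlapped a member's body or the 5 kb on either side, and was counted once per cluster. These windows spanned 117 kb at HOXA, 120 kb at HOXB, 123 kb at HOXC and 99.0 kb at HOXD.

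OPM-2 is an established human multiple myeloma cell line with the t(4;14) translocation. The cells were kept for 72 h with 1 µM all-trans retinoic acid (ATRA) plus 1 µM pomalidomide (POM), with 1 µM POM, with 1 µM ATRA, or with the solvent DMSO. ATRA is the ligand of the retinoic acid receptors, and POM redirects the cereblon ubiquitin ligase to new protein targets. Each treatment had 1 chromatin immunoprecipitation library and 1 input library, and the labels do not name the antibody, so what the peaks bind is not known here. With 1 library per treatment no difference could be set against a replicate spread, no test was made, and the intervals cover counting error only.

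HOX genes encode homeodomain transcription factors that give cells their position along the body axis. Within a cluster all genes are read in the same direction, and the genes at the 3′ end, with the lowest numbers, are switched on first and most readily by retinoic acid in embryos. In blood, several HOXA and HOXB genes are active in stem and progenitor cells and are shut down by Polycomb repressors as cells mature, and HOXA9 is a driver of leukaemia. Each homeodomain protein usually binds DNA together with a cofactor of the PBX or MEIS families.

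The lists held 47193 peaks with ATRA+POM, 54279 with POM, 36742 in the library labelled ATRA and 50946 with DMSO on the chromosomes used. Reads at a peak summit, recovered from the authors' fold enrichment and p, had medians of 65, 72 and 23 in the ATRA+POM, POM and ATRA lists and 78 in the DMSO list. The background in the lists placed the depth of the ATRA library at 0.132 of DMSO, against 0.900 for ATRA+POM and 0.925 for POM. The 6 plasma cell marker genes all had peaks at their loci in each list. Of 10 markers of other blood cells, CSF1R had 2 locus peaks with ATRA+POM, CSF1R, CD3E and LYZ had 6, 1 and 1 with POM, and none had any in the ATRA or DMSO lists. CD3D, CD14, MPO, GATA1 and MS4A1 were at 0 throughout. The part of such cells in the HOX results was not tested.

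The peaks called at the HOX clusters sat at the 3′ and middle genes and behind HOXD13. In all, 12 peaks were called with ATRA+POM, 16 with POM, 2 in the ATRA list and 11 with DMSO. At HOXB, 3 peaks were called with ATRA+POM, 7 with POM and 0 in the ATRA list, against 2 with DMSO. At HOXD the numbers were 4 with ATRA+POM, 4 with POM, 1 in the ATRA list and 3 with DMSO. HOXA had 4, 3, 1 and 4 peaks in the same order of lists, and HOXC had 1, 2, 0 and 2.

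**Figure D1:**
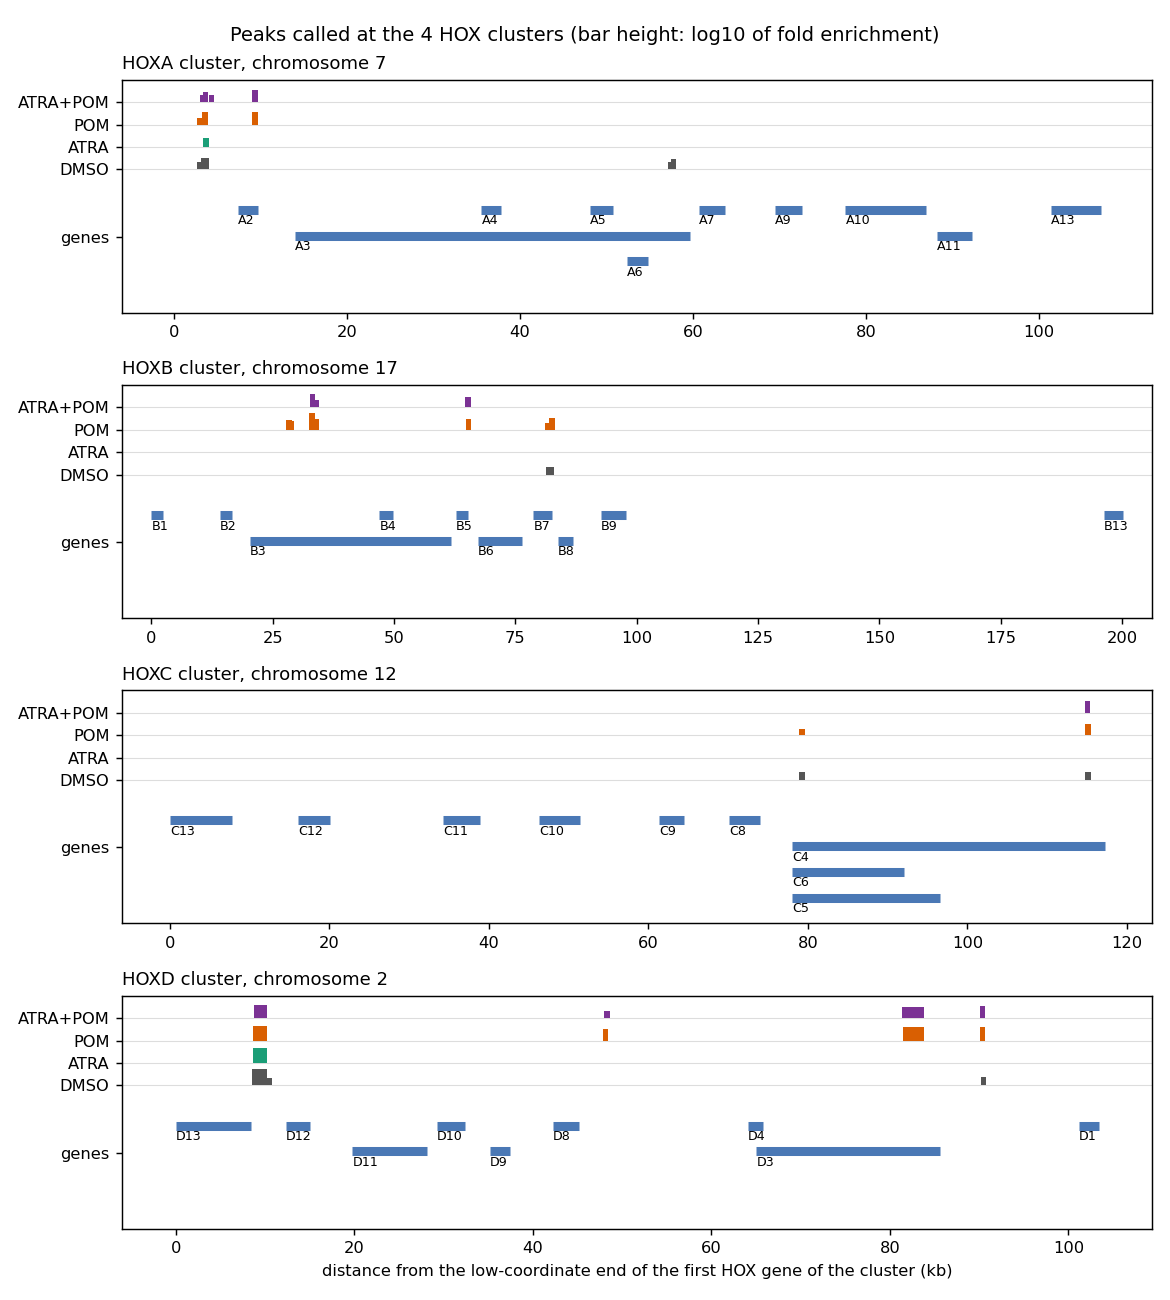
Peaks called at the HOXA, HOXB, HOXC and HOXD clusters in the 4 lists, with gene bodies in blue (A2 is HOXA2); x axis in kb from the low-coordinate end of the first member. Bars stand at the peaks, very narrow ones are widened to stay visible, and the height is the log10 of the fold enrichment. HOXB has no bar in the ATRA row, and the bar behind HOXD13, at the left of the HOXD panel, is present in every row.

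Scaled to length, the interval of the HOX windows took in the value of all genes in every list but that of ATRA. The HOX windows held 0.261 peaks per 10 kb with ATRA+POM (exact 95% Poisson interval 0.135 to 0.456), against 0.233 over the windows of all protein-coding genes. With POM the density was 0.348 (0.199 to 0.566) against 0.266 over all genes, and with DMSO it was 0.239 (0.120 to 0.429) against 0.257. In the ATRA list it was 0.0435 (0.00527 to 0.157), and the 0.20 over all genes lies outside that interval. The clusters could not be ranked within a list, since the intervals of HOXA, HOXB, HOXC and HOXD overlapped in each list. The HOXB density with POM, 0.582 (0.234 to 1.20), was the highest of the 16 values. Several of these HOXB peaks lie close together. Merging peaks within 500 bp took HOXB with POM from 7 to 4, the number at HOXD with POM, whose windows are shorter. HOXB was then no longer the highest.

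**Figure D2:**
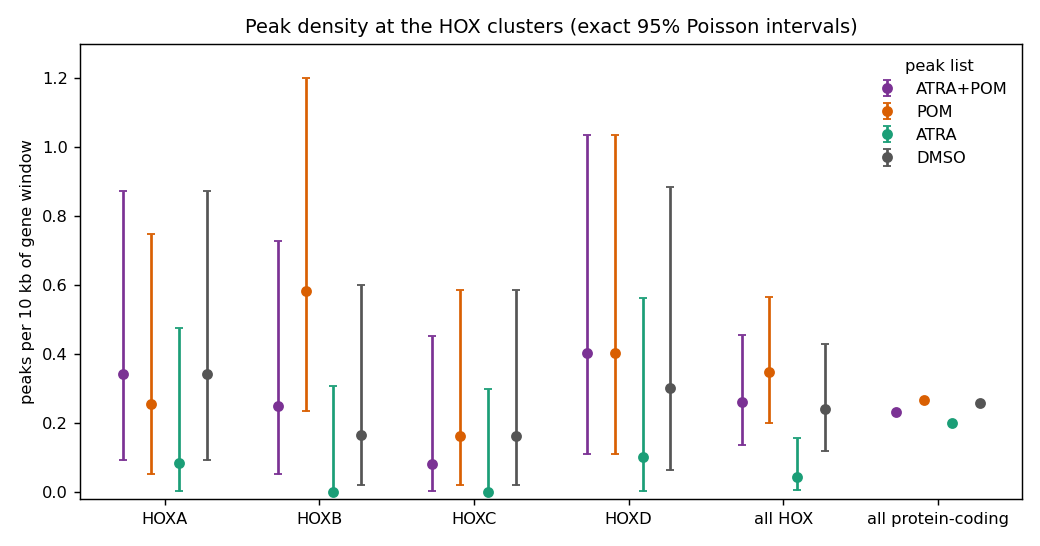
Peaks per 10 kb of window (gene body plus 5 kb on both sides) for each HOX cluster, for all HOX windows and for all protein-coding genes; points are values of 1 library each and bars are exact 95% Poisson intervals. HOXB with POM stands highest at 0.582, and the ATRA points lie at or below 0.101 in the 4 clusters.

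By gene, HOX loci held a peak less often than the average locus. A peak at the locus was found for 11 of the 39 members with ATRA+POM, where 57.8% of all protein-coding genes had one. For POM it was 15 members against a background of 63.9%, for the ATRA list 4 against 53.2%, and for DMSO 13 against 63.4%. HOX genes are short and lie close together, so neighbours share peaks and the members are not independent. At a gene end (a summit within 1000 bp of either annotated end) the members numbered 4 with ATRA+POM (39.2% of all genes), 5 with POM (45.2%), 2 in the ATRA list (38.2%) and 3 with DMSO (45.8%).

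Of the 23 members numbered 1 to 8, 15 had a locus peak in at least 1 list, while 2 of the 16 members numbered 9 to 13 had one. Those 2 are HOXD12 and HOXD13, limb and genital patterning genes, which share the same peaks. The 22 members with no peak in any list were HOXA4, HOXA5, HOXA9, HOXA10, HOXA11 and HOXA13, HOXB1, HOXB2, HOXB4, HOXB9 and HOXB13, HOXC8 to HOXC13, and HOXD1, HOXD4, HOXD9, HOXD10 and HOXD11. This set includes the leukaemia gene HOXA9, the stem cell factor HOXB4 and the retinoid-responsive hindbrain gene HOXB1. Over all genes, 32.1% had no locus peak in any list.

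Peaks of the 4 lists that shared a base merged into 20 HOX regions, 6 at HOXA, 7 at HOXB, 2 at HOXC and 5 at HOXD, numbered here by rising coordinate. Regions called with ATRA+POM and POM alone were the most frequent kind, with 6 of 20 (30%), against 9.60% of all 67328 regions. Regions called in every list numbered 2 (10%), against 28.8% of all regions. Another 4 were called with POM and DMSO, 3 with DMSO alone, 2 with ATRA+POM, POM and DMSO, 2 with POM alone and 1 with ATRA+POM alone. No HOX region was called in the ATRA list without also being called in the other lists.

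**Figure D3:**
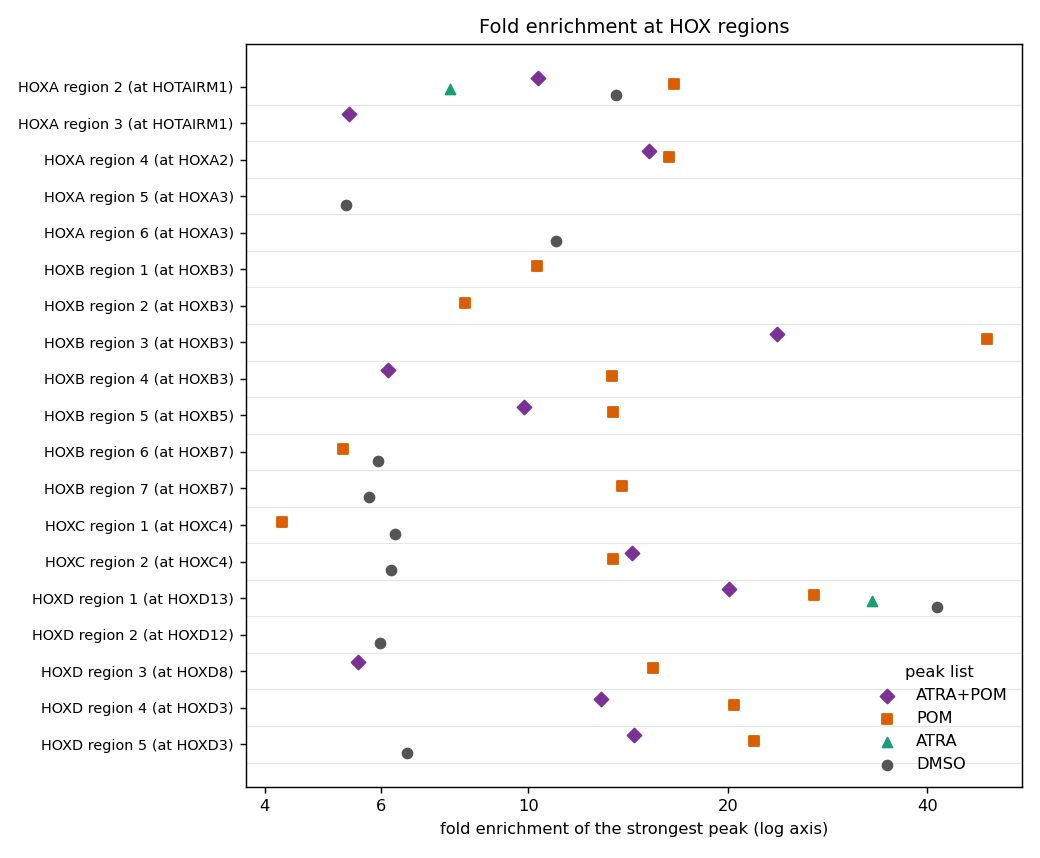
Fold enrichment (log axis, the authors' value for each library) of the strongest peak in HOX regions, one row per region with its nearest member or the non-coding gene it overlaps; a missing symbol means that no peak was called. HOXB region 3 with POM (49.3) and HOXD region 1 with DMSO (41.4) are the strongest, and triangles for the ATRA list appear in 2 rows.

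Sequence that lay under a HOX peak in 3 lists is shown for the start of HAGLROS, a non-coding RNA gene inside the HOXD cluster between HOXD3 and HOXD1. The 300 bases below run from 250 before to 50 after that start (RefSeq, GRCh38.p14, chr2:176177916-176178215, plus strand), and the capitals are the 185 bases that lay under the POM peak.
HAGLROS: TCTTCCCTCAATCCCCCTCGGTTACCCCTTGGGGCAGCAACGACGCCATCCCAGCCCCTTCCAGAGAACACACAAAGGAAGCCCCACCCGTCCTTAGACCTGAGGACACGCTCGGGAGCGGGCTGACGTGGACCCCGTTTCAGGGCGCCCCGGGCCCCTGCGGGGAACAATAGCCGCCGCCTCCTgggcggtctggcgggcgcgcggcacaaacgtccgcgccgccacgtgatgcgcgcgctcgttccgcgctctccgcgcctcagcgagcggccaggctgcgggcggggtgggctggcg
This sequence holds 37 CpG dinucleotides and is 71.7% G or C, against a median of 21 CpG in the promoters of protein-coding genes and 22 in those of HOX members. The summits fell 194 bases before the start with ATRA+POM, 188 with POM, and 195 in the DMSO list, so the 3 lists placed them within 7 bases of each other. The second sequence is the 250 bases before the start of HOXA2, whose body carried a peak in both pomalidomide lists (chr7:27102684-27102933, minus strand). Capitals mark matches to the PBX-HOX motif (TGATNNAT, here on the opposite strand) and to the MEIS motif (TGACAG).
HOXA2: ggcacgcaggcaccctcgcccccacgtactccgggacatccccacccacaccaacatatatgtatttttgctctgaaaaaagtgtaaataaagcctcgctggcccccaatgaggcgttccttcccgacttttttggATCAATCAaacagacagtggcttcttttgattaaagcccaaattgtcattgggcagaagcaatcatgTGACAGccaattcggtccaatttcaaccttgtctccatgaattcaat
The peak lay 148 bases inside the gene from the start, and so outside the printed stretch. Promoter sequences were at hand for 20 of the 39 members, as 27 promoters of 300 bases. TGATNNAT occurred on either strand in 3 of the 27 (11.1%), those of HOXA2, HOXB1 and HOXD11, against 5.21% of 22131 promoters of protein-coding genes. TGACAG occurred in 4 (14.8%) against 14.8%. The core of the retinoic acid receptor site was searched on both strands in 4 forms. The form AGGTCA occurred in 0 of the 27 against 11.9%, and the form AGTTCA in 6 (22.2%) against 8.65%. The form GGGTCA occurred in 4 (14.8%) against 14.1%, and the form GGTTCA in 2 (7.41%) against 7.87%. Any of the 4 occurred in 11 (40.7%) against 35.5%. Some genes have more than 1 of the 27 promoters, and both with GGTTCA were of HOXA3, so the 27 are not independent. Direct repeats of these cores spaced by 1, 2 or 5 bases occurred in none of the 27, and in 29, 8 and 17 of the 22131. The 300-base windows themselves were touched by a peak in 0 of 27 cases with ATRA+POM, POM and in the ATRA list and in 1 with DMSO, an internal start of HOXA3. Over all promoters the shares were 29.6%, 39.1% and 29.3% in the ATRA+POM, POM and ATRA lists and 43.4% with DMSO. The starts of HOXB5 and HOXB7, over which peaks are described below, were not among the 27. The count of 0 therefore does not hold for all HOX starts.

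At HOXA, one region of every list lay at the start of HOTAIRM1, a non-coding RNA gene of the myeloid lineage. HOXA region 2 (chromosome 7, 27096094 to 27097045), which begins at that start, was called in all lists. The DMSO peak alone reached the first base of HOTAIRM1, and the ATRA+POM, POM and ATRA peaks lay inside the gene. The enrichment there was 10.4 in the ATRA+POM list, 16.6 in the POM list, 7.61 in the ATRA list and 13.5 with DMSO, from 42, 56, 10 and 58 summit reads (with ATRA+POM the stronger of 2 peaks). The inferred background was 3.15, 2.43, 0.446 and 3.36 reads. Fold was modelled with 1 read added to signal and background, which lowers it most where the background is small. The ATRA fold is therefore not ranked against the others. HOXA region 3, farther into HOTAIRM1, was called with ATRA+POM alone with 17 reads. It was the only HOX peak of that list without a POM counterpart, and it too had one when peaks within 500 bp counted as shared.

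Inside HOXA2, which patterns the pharyngeal arches, region 4 (27102193 to 27102535) had a fold enrichment of 15.2 with ATRA+POM and 16.3 with POM, and was not called in the ATRA or DMSO lists. Its 50 and 55 reads shared the same summit base in both lists. Inside HOXA3, needed for the thymus and parathyroid, regions 5 and 6 were called with DMSO alone, with folds of 5.30 and 11.0 and 31 and 55 reads. The HOXA6 and HOXA7 loci reach these same HOXA3 peaks and held no other. Of POM peaks with reads within 20% of those of region 4, 63.0% had a DMSO counterpart, and of DMSO peaks like region 6, 60.5% had a POM and 38.0% an ATRA+POM counterpart.

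At HOXB, the strongest HOX peak of any list lay inside HOXB3, a factor of blood progenitors, beside the end of the antisense RNA HOXB-AS2. HOXB region 3 (chromosome 17, 48561228 to 48562169) had a fold enrichment of 23.7 with ATRA+POM and 49.3 with POM, from 208 and 553 summit reads, and no peak in the ATRA or DMSO lists. It exceeded 88.3% of ATRA+POM peaks and 93.4% of POM peaks in fold. Among POM peaks with a similar number of reads, 94.5% had a DMSO counterpart and 86.4% an ATRA counterpart. HOXB region 4, next to it, had folds of 6.15 with ATRA+POM and 13.4 with POM. Regions 1 and 2, farther along HOXB-AS2 and still inside HOXB3, were called with POM alone, with folds of 10.3 and 8.02 and 71 and 55 reads. HOXB3 thus carried peaks in both pomalidomide lists, with higher folds in the list without ATRA. That order is common to the lists: of 31667 regions called in both, 19.5% had the higher fold with ATRA+POM.

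HOXB5, which marks long-lived blood stem cells in mice, had a peak across its start in both pomalidomide lists (region 5, 48593670 to 48594043). Its fold was 9.85 with ATRA+POM (32 reads) and 13.4 with POM (45 reads). HOXB7, a homeodomain factor linked to growth in several tumours, had a pair of regions called with POM and DMSO. Region 7, over its start, had a fold of 13.9 and 48 reads with POM against 5.74 and 24 reads with DMSO, with summits 313 bases apart, and region 6, inside the gene, had 5.25 and 17 reads against 5.92 and 20 reads. Neither was called with ATRA+POM, where 44.9% of POM peaks with reads like region 7 and 12.6% of those like region 6 had a counterpart. HOXB6 and HOXB8 held only peaks of these neighbours.

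At HOXC, peaks were confined to the long shared transcription unit of HOXC4, HOXC5 and HOXC6. HOXC4 is active in B cells, where it promotes the enzyme AID that diversifies antibody genes. HOXC region 2 (chromosome 12, 54053729 to 54054091), inside HOXC4 and 1.94 kb from the annotated end, had a fold of 14.3 with ATRA+POM, 13.4 with POM, and 6.20 in the DMSO list. The reads were 47, 45 and 21, and the summits of the 3 lists lay within 4 bases. Region 1, 1.13 kb after the shared start, had folds of 4.24 with POM and 6.30 with DMSO, from 23 and 47 reads. In fold, region 2 exceeded 74.8% of ATRA+POM peaks, 62.6% of POM peaks and 32.1% of DMSO peaks, while HOXC8 to HOXC13 held no peak.

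At HOXD, the one broad region of every list lay directly behind HOXD13. HOXD region 1 (chromosome 2, 176096014 to 176097717) began 70 bp past the HOXD13 end and stopped 2.08 kb short of HOXD12. The peak was 1425 bp wide with ATRA+POM, 1529 with POM, 1536 in the ATRA list and 1704 with DMSO. Its fold was 20.1 with ATRA+POM, 27.0 with POM, 33 in the ATRA list and 41.4 with DMSO, from 307, 331, 82 and 507 reads. The inferred background was 14.3, 11.3, 1.52 and 11.3 reads, so the added read lowered the ATRA fold most here too. The 4 summits lay within 33 bases. A narrow DMSO peak beside it (region 2, fold 5.97, 40 reads) had no counterpart.

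HOXD regions 3 and 4 were called in the pomalidomide lists alone, and region 5 had higher folds there than with DMSO. Region 4 (176168842 to 176171331), inside HOXD3, a regulator of cell adhesion, was the widest HOX region. It had a fold of 12.9 with ATRA+POM and 20.4 with POM, from 453 and 644 reads and summits 2 bases apart, and no peak in the ATRA or DMSO lists. Among POM peaks with a similar number of reads, 95.5% had a DMSO counterpart and 88.8% an ATRA counterpart. Region 3, beyond HOXD8 over the antisense RNA HOXD-AS2, had folds of 5.54 with ATRA+POM and 15.4 with POM. Region 5, at the HAGLROS start shown above and inside the non-coding gene HAGLR, had folds of 14.4 with ATRA+POM, 21.9 with POM, and 6.55 in the DMSO list, from 53, 89 and 55 reads. The local background behind these folds was 2.74 reads in the ATRA+POM list, 3.11 in the POM list and 7.55 in the DMSO list, so the ATRA+POM and DMSO peaks differed in background more than in reads.

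Against DMSO, 7 of the 12 HOX peaks with ATRA+POM had no counterpart (58.3%, exact 95% binomial interval 27.7 to 84.8), where 24.1% of all ATRA+POM peaks had none. With POM it was 8 of 16 (50%, 24.7 to 75.3) against 30.2%, and in the ATRA list 0 of 2 (an interval up to 84.2) against 0.327%. In the other direction, 7 of 11 DMSO peaks were not called with ATRA+POM (63.6%, 30.8 to 89.1), with 44.1% over the whole DMSO list, and 3 of 11 were not called with POM (27.3%, 6.02 to 61.0), with 29.3%. For POM the interval includes the share of the whole list in both directions. The intervals treat peaks as independent, although several lie close together, as at HOXB3. With peaks within 500 bp counted as shared, 6 ATRA+POM and 8 POM peaks had no DMSO counterpart. Then 5 DMSO peaks had none with ATRA+POM and 2 none with POM. The shares of the whole lists were not recomputed for that setting, so no departure from them is read here. By gene, ATRA+POM had a locus peak where DMSO had none for HOXB3, HOXB5, HOXB6 and HOXD8, 4 of 39 members, with 2.69% of all genes doing so. POM had one for the same 4 members, with a background of 3.82%. The HOXB5 and HOXB6 loci held the same peak, which also lay in the HOXB3 window, so the 4 are not separate places. Only 13 of the 39 members had a locus peak with DMSO, against 63.4% of all genes, so more of them could gain one. No peak at a locus with ATRA+POM and at least 1 with DMSO was the case for HOXA6, HOXA7, HOXB7, HOXB8, HOXC5 and HOXC6 (8.27% of all genes), and with POM for HOXA6 and HOXA7 (3.35%). HOXA6 and HOXA7 shared their DMSO peaks, as did HOXB7 and HOXB8, and HOXC5 and HOXC6. The comparisons with DMSO share 1 library, so they are not independent.

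More locus peaks than with DMSO were found for 7 members with ATRA+POM (20.6% of all genes) and for 6 with POM (23.0%). Fewer were found for 10 with ATRA+POM (30.1%) and for 5 with POM (21.5%). The shares of members were 17.9%, 15.4%, 25.6% and 12.8%. The median member had 0 locus peaks in the ATRA+POM, POM and DMSO lists, where the median gene had 1, 2 and 1. Members thus had less room for unequal numbers, and neighbours share peaks, so these shares are not read as a HOX trait. The ATRA list had more for none (14.7%) and fewer for 13 (33.8%), a share of 33.3% that is close to the background. No member had a locus peak in the ATRA list and none with DMSO (0.0501% of all genes), and 9 had none in the ATRA list and at least 1 with DMSO (10.2%).

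The shallow ATRA library missed 9 of the 11 HOX peaks of DMSO (81.8%, 48.2 to 97.7), where 48.7% of all DMSO peaks were missed. The 9 had 20 to 69 reads, and among DMSO peaks with similar reads the share called in the ATRA list ran from 1.99% at HOXB7 to 34.8%. The peak behind HOXD13, with 507 reads, was called, as were 100% of DMSO peaks with similar reads. Depth and treatment cannot be told apart for the 9 places. HOXB region 3 and HOXD region 4 were missing from the DMSO list too, and of ATRA+POM peaks with similar reads, 75.6% and 85.3% had an ATRA counterpart.

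At regions called in both lists, ATRA+POM had lower folds than POM in 9 of 10 HOX regions, as in the lists as a whole. The log2 ratio of fold enrichment had a median of −0.63 over the 10, between −1.48 at HOXD region 3 and 0.10 at HOXC region 2, against −0.66 over 31667 regions. For POM over DMSO the median was 0.11 over 8 HOX regions and 0.08 over 32829. The 8 spread from −0.62 behind HOXD13 to 1.74 at the HAGLROS start, and the middle 50% of all regions lay between −0.46 and 0.65. For ATRA+POM over DMSO the 4 shared regions gave −1.04 behind HOXD13, −0.39 at HOTAIRM1, 1.14 at HAGLROS and 1.21 at HOXC4, against a median of −0.56 over 26253 regions. Folds were not scaled between libraries, so a ratio is read against the median of its comparison.

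**Figure D4:**
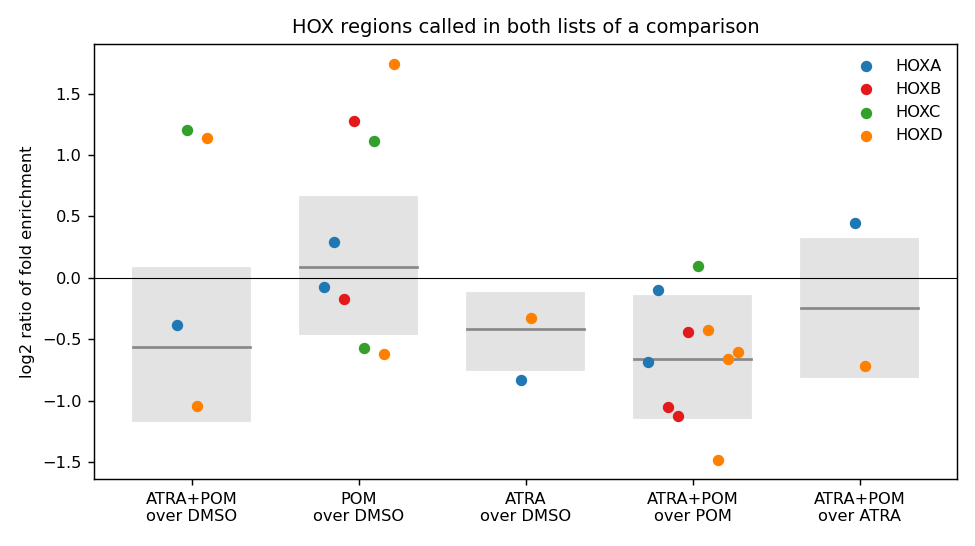
Log2 ratio of fold enrichment at HOX regions called in both lists of a comparison (points, coloured by cluster), with the median (line) and the middle 50% (grey box) over all shared regions. The 10 points for ATRA+POM over POM scatter around the median of −0.66, and of the 8 points for POM over DMSO, 3 lie above the grey box and 2 below it.

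Against POM, 1 of 12 ATRA+POM peaks had no counterpart (8.33%, 0.211 to 38.5), and 10.5% of all ATRA+POM peaks had none. In the other direction 6 of 16 POM peaks were not called with ATRA+POM (37.5%, 15.2 to 64.6), with 36.2% over the whole list. Of the 6, 4 lay at HOXB3 and HOXB7 and 1 at HOXC4. No member had a locus peak with ATRA+POM and none with POM (0.971% of all genes), while HOXB7, HOXB8, HOXC5 and HOXC6 had one with POM and none with ATRA+POM (7.02%). ATRA+POM had more locus peaks than POM for 2 of 39 members (16.9%), and fewer for 6 (29.2%). Against the ATRA list, 10 of 12 ATRA+POM peaks had no counterpart (83.3%, 51.6 to 97.9), with 43.8% over the whole list. Among ATRA+POM peaks with reads similar to each of the 10, the share called in the ATRA list ran from 22.1% to 85.3%. The ATRA library had 0.132 of the DMSO depth, so depth and treatment cannot be told apart here either. HOXA3, HOXB3, HOXB5, HOXB6, HOXC4, HOXD3 and HOXD8 had a locus peak with ATRA+POM and none in the ATRA list (7.41% of all genes), and no member had the reverse (2.82%). Neighbours share peaks here too, so the members are not independent. ATRA+POM had more locus peaks than the ATRA list for 9 members (25.3% of all genes) and fewer for none (17.9%).

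Over all genes, 57.8% had a locus peak with ATRA+POM, 63.9% with POM, 53.2% in the ATRA list and 63.4% with DMSO. The PBX and MEIS cofactors were covered unevenly. Of the 9 genes of that group, 6 had a locus peak in the ATRA+POM list, 6 in the POM list, 5 in the ATRA list and 5 in the DMSO list, and 4 had more peaks with ATRA+POM than with DMSO (20.6% of all genes) and none fewer (30.1%). MEIS1, which works with HOXA9 in leukaemia, had 12 peaks with ATRA+POM, 11 with POM, 5 in the ATRA list and 8 with DMSO, and MEIS2 had 7, 7, 6 and 3. PBX3 had 9, 6, 7 and 9, and PBX2 had none. PKNOX2 had 1 peak with ATRA+POM and 2 with POM, and none in the ATRA and DMSO lists.

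Among 23 Polycomb genes, which keep HOX clusters silent, 5 had more and 11 had fewer locus peaks with ATRA+POM than with DMSO, where 20.6% of all genes had more and 30.1% fewer. EZH2, the methyltransferase of the repressive complex, had 10 with ATRA+POM, 8 with POM, 3 in the ATRA list and 4 with DMSO, and BMI1 had 5, 10, 6 and 7. JARID2 had 7, 11, 8 and 11, PHC3 had 9, 7, 11 and 12, CBX6 had 1, 1, 1 and 3, and CBX2 had peaks with DMSO alone (2). Among 21 trithorax and MLL partner genes, which keep HOX genes active, each had a locus peak in each list, and 7 had more and 12 fewer with ATRA+POM than with DMSO, against the same shares of all genes. KMT2A had 3, 4, 7 and 6 peaks, and NSD2, the histone methyltransferase of the t(4;14) translocation, had 12, 11, 15 and 10. MLLT10 had 17, 21, 19 and 25, MLLT3 had 17, 20, 22 and 22, KMT2C had 6, 6, 8 and 9, and ASH2L had 4, 2, 4 and 2. The 6 ParaHox and caudal genes, relatives of the HOX genes outside the clusters, held 1 peak, at GSX1, with ATRA+POM and with POM.

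Most genes beside the clusters had a locus peak in each list. Of the 21 neighbours, 17 had a locus peak with ATRA+POM, 17 with POM, 15 in the ATRA list and 17 with DMSO. SKAP1, an adaptor protein next to HOXB, had 11 peaks with ATRA+POM, 13 with POM, 3 in the ATRA list and 5 with DMSO, and SKAP2, next to HOXA, had 6, 6, 7 and 6. ATF2, near HOXD, had 5, 6, 6 and 10, ATP5MC3 had 2, 3, 2 and 5, LNPK had 1, 2, 3 and 3, and CBX5, near HOXC, had 5, 4, 4 and 3. EVX1 and EVX2, the homeobox genes at the ends of HOXA and HOXD, had 0 throughout and 1, 1, 0 and 1. Of 14 other homeobox genes and partners outside the clusters, 5 had more and 8 fewer locus peaks with ATRA+POM than with DMSO, where 20.6% of all genes had more and 30.1% fewer. CUX1, a homeodomain repressor, had 10, 20, 11 and 17, POU2F2, a B cell octamer factor, had 0, 0, 0 and 3, POU2F1 had 8, 8, 7 and 5, and SATB1 had 3, 2, 2 and 6. These counts are of genes of very unequal length and were not scaled.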

How the data were processed

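OPM-2 chromatin was fixed, sheared and immunoprecipitated, per the labels' protocols. The submitters' processing notes name hg38. No source used here names the aligner, the peak caller or the antibody. The authors deposited 1 peak list per ChIP library. Each deposited peak carries a score, a fold enrichment (a ratio to that library's local background), a −log10 p and a −log10 q. The lowest deposited −log10 p was 5.02.

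Summit reads were inferred from fold and p under a Poisson model with 1 read added to signal and background. They came out whole (within 0.02, or matching −log10 p within 0.001 at low background) for at least 99.95% of peaks per list. Relative depth compares the lowest background shared by at least 20 peaks, per base of the smallest peak. An overlap of 1 bp counted. Coordinates are 1-based. Gene positions and promoters are RefSeq (GRCh38.p14). Steps were tested on simulated data.

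Members and lists were chosen with earlier results of these data known. Genes outside the clusters were named if on a fixed list of 13, or among up to 4 per list with the largest difference in locus peaks between ATRA+POM and DMSO. CD3E and LYZ fall outside that rule, and some genes and 1 region are not reported here. Alternatives were the 36742 strongest peaks of each list, a fold of at least 10, the stronger 50%, flanks of 0 or 10 kb, whole cluster spans, merging or sharing within 500 bp, a 50% overlap, and no ATRA list. Software was Python 3.11.15 with matplotlib 3.10.9, pandas 2.3.3, scipy 1.17.1 and numpy 2.4.6.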

Additional observations from a re-analysis of the deposited data

Results flagged for a closer look

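At HOXA the difference in the number of peaks that went with one compound had opposite signs with and without the other. Pomalidomide went with a difference of 3 peaks when ATRA was present (4 with ATRA+POM, 1 in the ATRA list) and of -1 when it was not (3 with POM, 4 with DMSO). ATRA went with a difference of 1 peak when pomalidomide was present (4 with ATRA+POM, 3 with POM) and of -3 when it was not (1 in the ATRA list, 4 with DMSO). With 1 library per treatment these differences were not tested, and the lower depth of the ATRA library cannot be told apart from its treatment. The opposite signs for ATRA were not found in 5 of the alternatives. With pomalidomide present, HOXA then had 2 peaks with ATRA+POM and 2 with POM under the equal number, the fold of 10 and merging, and 1 with ATRA+POM and 2 with POM in the stronger 50% and without flanks. The opposite signs for pomalidomide were not found under the fold of 10, merging and the stronger 50%. Without ATRA, HOXA then had 2, 2 and 2 peaks with POM against 2, 2 and 1 with DMSO. The signs were as above with flanks of 10 kb and with whole cluster spans.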

How the results depend on the processing

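No paired analysis was possible because each treatment had 1 ChIP library. Of 166 summary values recomputed under an alternative, 111 stayed within 1.5 times and 55 did not. Flanks of 10 kb, whole cluster spans and a 50% overlap moved none of these that far. The counts of single clusters in single lists are not among these values. Both wider windows raised the DMSO peaks at HOXD from 3 to 5, equal to the 5 of either pomalidomide list. The main difference at HOXD was thus not found under them. All clusters then held 13 peaks for DMSO, 13 for ATRA+POM and 17 for POM. At 10 kb, members having a locus peak numbered 18 for DMSO, 18 for POM and 12 for ATRA+POM. With the 36742 strongest peaks of each list, DMSO had 6 HOX peaks and HOXC 3 over the 4 lists. ATRA+POM peaks absent from POM then numbered 0, and DMSO peaks absent from ATRA+POM 3 and from ATRA 4. At a fold of at least 10, HOX peaks numbered 7 with ATRA+POM, 1 in the ATRA list and 3 with DMSO, and over the 4 lists 6 at HOXA, 6 at HOXB and 2 at HOXC. Members with a locus peak were then 2 in the ATRA list and 7 with DMSO. ATRA+POM peaks absent from POM were 0 and from ATRA 6, and DMSO peaks absent from ATRA+POM were 1, from POM 1 and from ATRA 2. Regions were 13, with 1 of DMSO alone and 1 of every list. In the stronger 50% of each list, HOX peaks were 6, 9 and 1 in the ATRA+POM, POM and ATRA lists and 2 with DMSO, with 4 at HOXA, 4 at HOXB and 1 at HOXC. Members were 7, 8 and 2 in the ATRA+POM, POM and ATRA lists and 4 with DMSO. ATRA+POM peaks absent from ATRA were 5, and DMSO peaks absent from ATRA+POM were 1, from POM 0 and from ATRA 1. Regions were 10, with 0 of DMSO alone and 1 of every list. Without flanks, HOX peaks were 6 with ATRA+POM, 0 in the ATRA list and 7 with DMSO, with 6 at HOXA and 2 at HOXD, and members were 5, 9 and 0 in the ATRA+POM, POM and ATRA lists and 6 with DMSO. Merging peaks within 500 bp gave 7 at HOXA, 7 at HOXB and 7 with DMSO. Sharing within 500 bp left 0 ATRA+POM peaks absent from POM, and merging regions within 500 bp gave 13, with 1 of DMSO alone. Without the ATRA list, regions called in every list were 4. The stricter settings keep fewer peaks by construction. At HOXB the order held: ATRA+POM had 3, 1 and 1 peaks, POM had 6, 5 and 3 and DMSO had 0, 0 and 0 under the equal number, the fold of 10 and the stronger 50%. Single libraries, the depth of the ATRA library and the unnamed antibody limit each comparison.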

Other observations

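The genes that define plasma cells had locus peaks in each list. PRDM1, which drives plasma cell formation, had 8 with ATRA+POM, 6 with POM, 9 in the ATRA list and 5 with DMSO, and XBP1, the secretory pathway factor, had 6, 2, 5 and 4. The myeloma survival factor IRF4 had 4, 4, 5 and 8, and CD38 had 2, 3, 3 and 3. Of the 6 genes, 3 had more and 2 fewer locus peaks with ATRA+POM than with DMSO, where 20.6% of all genes had more and 30.1% fewer, and no difference was tested.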
